A study of Mus musculus with 36 samples.

Results

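An untreated mouse embryonic fibroblast (MEF) line deleted for the kinase PERK was compared with an untreated wild-type (WT) MEF line. The labels assign 3 libraries to the untreated PERK-deletion line and 3 to the untreated WT line, 6 of the 36 in the series. The study as a whole set WT, PERK-deletion and GCN2-deletion MEFs beside each other to look for markers of either kinase, untreated, with the solvent DMSO, after 6 h in medium lacking lysine and arginine, or after 6 h of 200 nM thapsigargin, with 3 libraries a group. Here the other conditions serve only to see whether the untreated differences between the lines recurred. Per the labels' protocols, the culture medium of all lines was RPMI 1640, with fetal bovine serum at 10%. The labels name 1 line per genotype and call its libraries technical replicates. They give neither the deleted part of the gene nor the age, sex or passage of the cells. Genotype and cell line therefore cannot be told apart anywhere below, and the p-values set the difference only against the variation among technical replicates of 1 line each.

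PERK, encoded by Eif2ak3, sits in the membrane of the endoplasmic reticulum (ER) and phosphorylates the translation factor eIF2 alpha when unfolded proteins accumulate there. General translation then falls while the transcription factor ATF4 is made, and ATF4 with its partner CHOP turns on genes for amino acid supply, redox balance and cell death. Fibroblasts secrete large amounts of collagen through the ER, and their position in the embryo is recorded in the HOX genes they express.

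Levels are given in TPM, a transcript abundance scaled by gene length and to a fixed total, so it can be compared between genes but keeps no sequencing depth. Differences are PERK-deletion minus WT on the scale log2(TPM + 1), where 1 is a doubling of a well expressed gene and the change of a low gene is understated. A gene passed at an adjusted p under 0.05 (limma across all tested genes, Benjamini-Hochberg), and higher or lower below means that it passed. Library values are listed in the order of replicates 1, 2 and 3.

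Eif2ak3 itself (chr6:70844515-70905245, plus strand) was still read in the deletion line, at 4.58, 4.21 and 3.87 TPM against 7.52, 7.46 and 5.97 TPM in WT. The 2 sets of libraries did not overlap, and the difference was -0.61 (SE 0.0974, adjusted p = 6.64e-06). A gene-level sum over transcripts does not show which exons the reads came from, so it does not check the deletion. Of the other 3 kinases that phosphorylate eIF2 alpha, the heme-regulated Eif2ak1 was lower (-0.31, adjusted p = 2.06e-05; the call ended with the 6 libraries fitted alone), and Eif2ak2 (-0.25) and Eif2ak4 (-0.11) did not pass. Eif2ak2 passed as lower after either rescaling described below and without WT replicate 3. Among the 6 libraries, mitochondrial transcripts took 7.26 to 9.49% of all TPM, highest in WT replicate 1, and microRNA genes 0.839 to 2.97%.

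The lines differed widely before any stress. Type I, III and VI collagen genes and several posterior HOX, sterol, heat shock and ER chaperone genes were lower in the PERK-deletion line. Higher were 4 Y-linked genes, many lysosomal and MHC class I genes, and single genes such as Alx4, Six2, Acta2 and Tagln. Of 16083 genes tested, 5022 were higher (31.2%) and 2986 were lower (18.6%), 1065 (6.62%) and 590 (3.67%) of them at least 2-fold. Over all tested genes, whether they passed or not, the libraries of the lines did not overlap for 4539 with the deletion line above WT (28.2%). The same held for 2727 with it below WT (17%). Higher genes made up 62.7% of all calls, but 50.2% after median-of-ratios rescaling and 51.8% after quantile normalization, so a small difference of either sign depends on the scaling. The median difference over all tested genes was 0.08, and 0.10 over the 12201 protein-coding genes. Of these, 36.8% were higher and 21.6% lower in the main fit over all 12 groups. List counts of that fit below have to be read beside these shares. Fitting the 6 libraries alone, called the 6-library fit below, took the spread from these libraries only and gave 3031 higher and 1687 lower genes. The DMSO groups fitted alone gave 6241 and 2497. Replicates varied more untreated (median SD across genes 0.195 in WT and 0.150 in the deletion line) than in DMSO (0.107 and 0.0892). The spread pooled over 12 groups can therefore be too small for the untreated lines, and the main counts too high. Counts of the 6-library fit are given for each list count below that moved by over 1.5 times. They have to be read beside the 3031 higher and 1687 lower of 16083 genes in that fit. List counts after median-of-ratios rescaling belong beside 4156 higher and 4119 lower of 16083, and those after quantile normalization beside 4361 and 4059.

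Among the 14 protein-coding genes that were lowest against WT, 4 encode matrix proteins. Col3a1 (chr1:45311538-45349706, plus strand), the chain of type III collagen, stood at 1.45, 0.796 and 0.363 TPM in the deletion line and 270.4, 269 and 233 TPM in WT (-7.15, SE 0.225, adjusted p = 2.78e-20). Col1a1 (chr11:94936224-94953042, plus strand), a chain of type I collagen, stood at 15.6, 15.5 and 14.2 against 1329, 914 and 931 TPM (-6.02, SE 0.115, adjusted p = 2.64e-25). Fbln2, which encodes the elastic fibre protein fibulin, stood at 4.36, 3.41 and 3.56 against 373, 325 and 309 TPM (-6.14), and the proteoglycan gene Bgn at 13.2, 12.3 and 10.8 against 840.3, 800.5 and 774 TPM (-5.95). The 14 were chosen among genes whose libraries did not overlap between the lines. In each of these matrix genes the highest library of the deletion line was far below the lowest WT library.

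Developmental regulators were another group among the lowest. Hoxc11 stood at 0.0381, 0 and 0.0728 TPM in the deletion line and 47.5, 48 and 47 TPM in WT (-5.55), and its neighbour Hoxc10 at 0.0811, 0.142 and 0.194 against 44, 49 and 47.3 TPM (-5.39). Pitx1, a homeobox factor known for specifying the hindlimb, stood at 0.0309, 0.054 and 0.059 against 26.1, 23.7 and 27.3 TPM (-4.67). All 3 were well read in WT, and no library of the deletion line reached 1 TPM of any of them. The signalling genes were Ptgis, prostacyclin synthase (0.87, 0.732 and 0.788 against 92.1, 101 and 106 TPM, -5.81), Tfpi, an inhibitor of blood clotting (-5.07), Fgf7, a growth factor that acts on epithelium (-4.71), and the surface antigen gene Ly6a (-4.93). Sdr39u1 (-5.05), Rasl11a (-5.02) and the gene model Gm10800 (-4.53) complete the 14.

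The 14 highest included 3 homeobox factors of head mesenchyme. Alx4 was read at 31.1, 27.4 and 24.5 TPM in the deletion line and at 0, 0.00856 and 0 TPM in WT (4.83, SE 0.0729, adjusted p = 1.63e-27). Alx1 stood at 27.6, 27.3 and 23.9 against 0.118, 0.0769 and 0.143 TPM (4.61), and Six2, which is known from kidney and craniofacial progenitors, at 24.5, 23.5 and 23.9 against 0.211, 0.0238 and 0 TPM (4.54). WT libraries were near 0 for all 3 factors. Crabp1, a retinoic acid binding protein, stood at 89.8, 87.6 and 101 against 1.37, 2.55 and 2.74 TPM (4.89). Further high genes were the imprinted Nnat (32.5, 35.5 and 39.9 against 0, 0.0305 and 0 TPM, 5.19), Dynap (133, 128 and 113 against 0.0628, 0.184 and 0.0916 TPM, 6.82) and Perp, a p53 target of cell junctions (46.5, 49.9 and 41.6 against 0.409, 0.703 and 0.682 TPM, 4.88). Sorbs2, an adaptor of the actin cytoskeleton (5.14), Igfbp2, which binds insulin-like growth factors (4.65), Ccbe1 (4.31) and the Y-linked Eif2s3y (4.91) were also among the 14 highest, as were 3 gene copies described below.

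**Figure D1:**
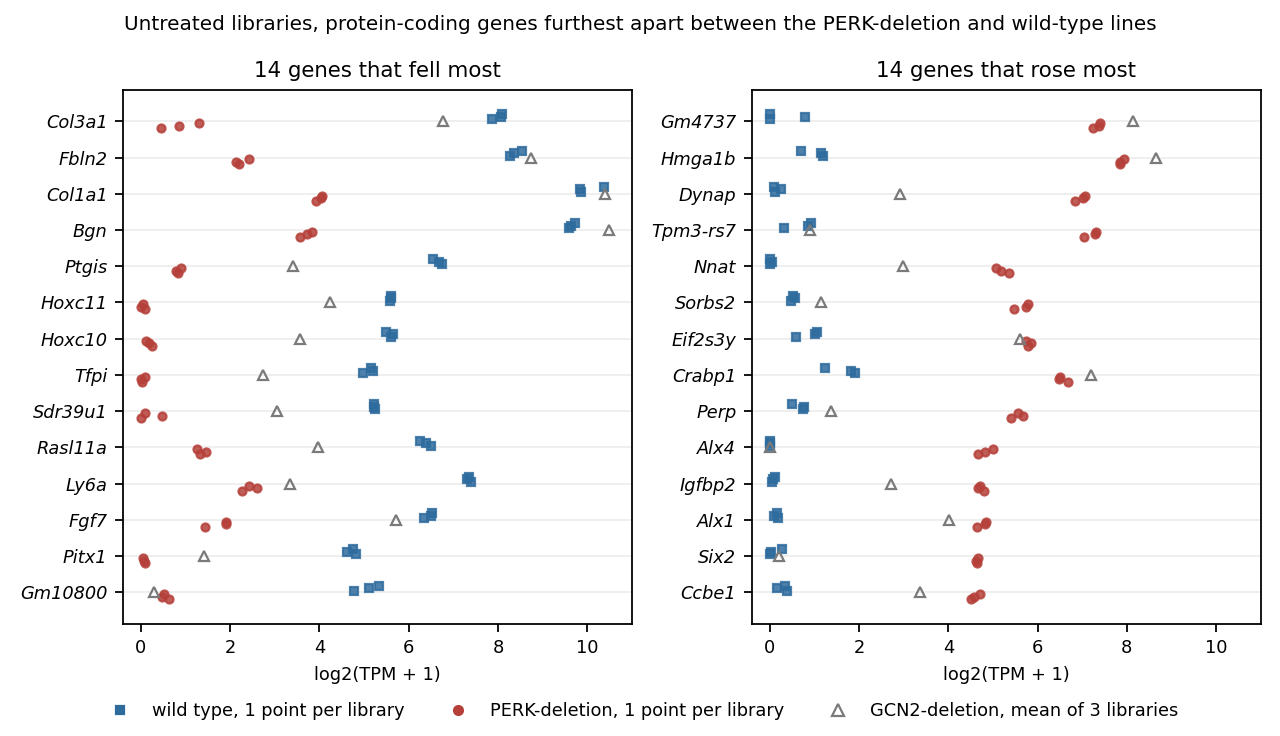
Levels in single libraries of the 28 protein-coding genes furthest apart between the untreated lines, 14 each way. Each row is a gene, the horizontal axis is log2(TPM + 1), and each filled point is 1 of the 6 untreated libraries. The mean of the GCN2-deletion line is an open triangle. In every row the points of the PERK-deletion and WT lines lie apart, which the rule that chose the genes required.

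The DMSO libraries, which are separate libraries of the same lines, gave a repeat of the comparison. In DMSO 6198 genes were higher (38.5%) and 2433 were lower (15.1%), with 1232 (7.66%) and 486 (3.02%) at least 2-fold. Of the 8008 genes that passed untreated, 7799 had the same sign in DMSO and 6707 (83.8%) also passed with it, as did 1502 of the 1655 that differed 2-fold (90.8%). The median of all tested genes was 0.20 in DMSO, and it moved to 0.01 and 0.00 after the 2 rescalings, so small differences in DMSO lean upward by about that much. The test of the DMSO difference against the untreated difference called 0 of 16083 genes (limma), with 1481 (9.21%) at an unadjusted p under 0.05 and a lowest adjusted p of 0.195. All 28 genes named above passed in the same direction and at least 2-fold in DMSO, after starvation and after thapsigargin, where 7.24% and 10.3% of all tested genes were higher 2-fold and 4.26% and 3.89% lower 2-fold. In all 4 conditions 3604 genes were higher (22.4%) and 1601 lower (9.95%), 705 (4.38%) and 295 (1.83%) of them 2-fold in each.

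**Figure D2:**
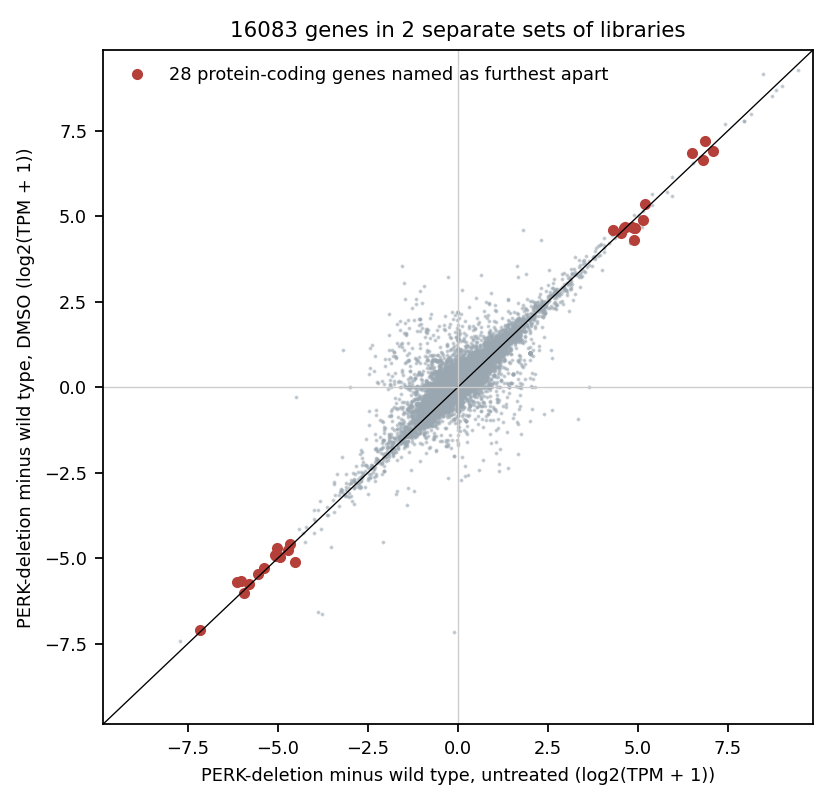
Difference of PERK-deletion minus WT for each tested gene, untreated on the horizontal axis and in DMSO on the vertical axis, both on the log2(TPM + 1) scale. The points run along the diagonal, with Pearson r = 0.85 across genes, which are not independent replicates, and the 28 named genes are marked in red at both ends.

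The 3 copies among the highest genes have almost the sequence of their parent genes, and counting could split reads between them. Gm4737 (chr16:46152985-46155077, minus strand) is 99.7% identical to Ahcy, the enzyme that clears S-adenosylhomocysteine, over 2083 aligned bases, with 4 differing bases in the coding sequence. A 51-base stretch of the coding sequence with 2 of these bases shows how little separates them. Positions count from 1 at the first coding base of the parent, the stretch runs from 434 to 484, the sequences come from GENCODE transcripts on GRCm38, and capitals mark the bases that differ.
Ahcy: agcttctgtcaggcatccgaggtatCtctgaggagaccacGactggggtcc
Gm4737: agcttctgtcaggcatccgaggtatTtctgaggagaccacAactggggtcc
The substitutions are C459T and G474A. Tpm3-rs7 differs from the tropomyosin gene Tpm3 by 13 bases of 2102 aligned, 3 of them coding, and positions 47 to 97 hold 1 of these, G72A.
Tpm3: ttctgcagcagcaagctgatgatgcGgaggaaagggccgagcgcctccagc
Tpm3-rs7: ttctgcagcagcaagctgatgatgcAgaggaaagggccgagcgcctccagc
The copies were read almost only in the deletion line of this pair of lines. Gm4737 stood at 168, 164 and 151 TPM in the deletion line and 0, 0.741 and 0 TPM in WT, and Tpm3-rs7 at 156, 155 and 131 against 0.896, 0.821 and 0.245 TPM. Hmga1b, a copy of the chromatin protein gene Hmga1 that shares 99.8% of 1602 aligned bases, stood at 245, 229 and 228 against 0.63, 1.21 and 1.27 TPM. Ahcy alone was lower in the deletion line (-1.57, adjusted p = 1.07e-15), yet Ahcy and Gm4737 summed to 242 ± 14.1 TPM there and 244 ± 29.8 TPM in WT (mean ± SD, n = 3 libraries). Gm4737 took 66.5% of that sum in the deletion line, 0.094% in WT and 96.7% in the GCN2-deletion line. For Hmga1 and Hmga1b the sums were 676 ± 29.9 against 771 ± 64.4 TPM, and for Tpm3 and Tpm3-rs7 they were 505 ± 30.7 against 415 ± 15.1 TPM. Parent and copy are therefore uncertain taken singly, and the difference in Ahcy was not seen in the sum with its copy. Another copy, Rpl34-ps1, a processed pseudogene of a ribosomal protein gene, lies 219 kb from Eif2ak3 and stood at 666, 717 and 903 TPM against 0, 0.249 and 0 TPM in WT (9.46). It stood at 862 TPM in the GCN2-deletion line as well.

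Differences were not spread evenly over the chromosomes. Of 500 protein-coding genes tested on chromosome 15, 373 (74.6%) were lower and 45 higher, with a median of -0.57. On chromosome 7, 512 of 903 (56.7%) were lower, with a median of -0.33. The chromosomes with the highest medians were 12 (median 0.53, with 326 of 419 genes higher), 13 (0.48), 18 (0.43) and 9 (0.40), all against 0.10 over protein-coding genes, while the remaining chromosomes ran from -0.10 on chromosome 19 to 0.24 on chromosome 1. The lean held along the length of a chromosome: 3 parts of chromosome 15 with equal numbers of genes had medians of -0.52, -0.59 and -0.58, and those of chromosome 12 of 0.55, 0.56 and 0.46. In DMSO the medians of chromosomes 15, 7 and 12 were -0.43, -0.22 and 0.60. The GCN2-deletion line stood below WT on chromosome 15 as well (-0.59) but not on chromosome 7 (0.03), and between the deletion lines chromosome 15 had a median of -0.01. On chromosomes 9, 12, 13 and 18 the GCN2-deletion line stood above WT (0.27, 0.185, 0.24 and 0.368). The PERK-deletion line differed from it there by medians of 0.141, 0.353, 0.235 and 0.09, beside 0.13 over all tested genes. Chromosomes 7 and 15 together held 1403 of the 12201 protein-coding genes tested and 885 of the 2630 lower ones, and chromosomes 9, 12, 13 and 18 held 1890 of those tested and 1319 of the 4484 higher ones; these chromosomes were singled out after their values were seen. DNA copy number was not measured, and its part in any gene's difference was not tested.

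**Figure D3:**
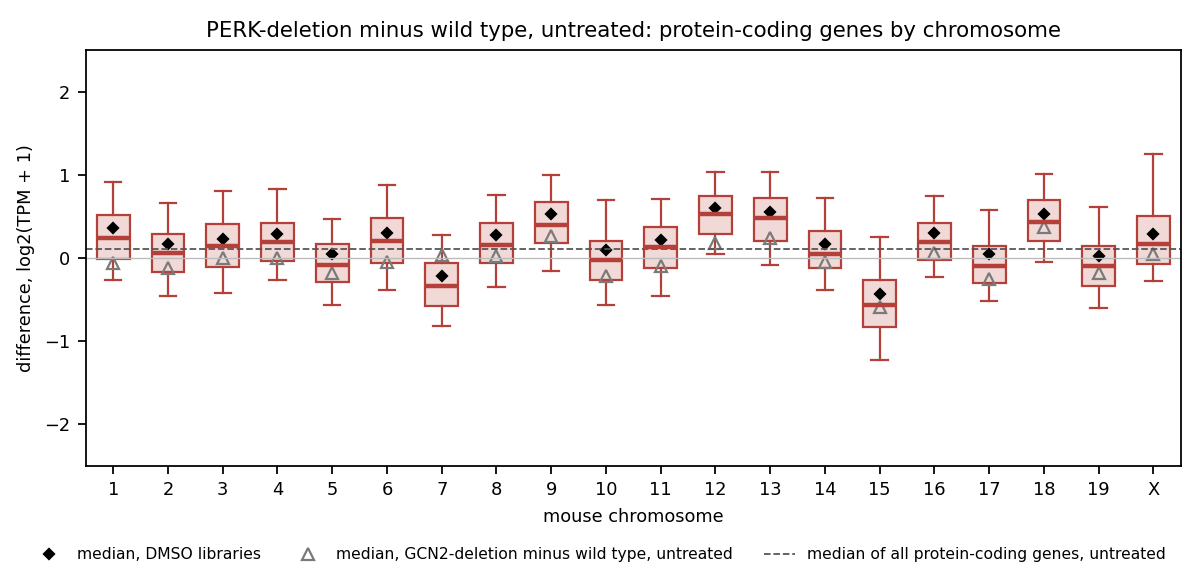
Differences of protein-coding genes between the untreated lines by chromosome. Boxes run from the lower to the upper quartile with the median as a line, and whiskers run from the 10th to the 90th percentile. Diamonds are the medians in DMSO and triangles those of GCN2-deletion minus WT. The medians of chromosomes 7 and 15 lie furthest below the dashed median of all protein-coding genes, and those of chromosomes 9, 12, 13 and 18 furthest above it.

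Within 5 Mb of Eif2ak3 on chromosome 6, 35 other protein-coding genes were tested, of which 15 were higher and 5 lower, with a median of 0.13. Over all protein-coding genes the shares were 36.8% and 21.6%. Over those of chromosome 6 they were 43.7% and 14.2%, with a median of 0.20. The nearest, Rpia of the pentose phosphate pathway, did not pass (-0.04). On the other side Krcc1, 366 kb away, was higher (50.4, 47.5 and 37.8 TPM against 24.1, 23.7 and 22.4 TPM, 0.91). A 2-fold difference was found for Reep1, which shapes the tubular ER (1.95), and for Sh2d6 (-1.30), in opposite directions.

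Of 21 tested collagen chains (of 23), 8 were lower, 7 higher and 6 did not pass (4 higher and 7 lower in the 6-library fit). Their median of -0.03 turned to 0.09 without WT replicate 1 and was -0.15 without WT replicate 2 and -0.07 without WT replicate 3. The lower ones were led by the fibril-forming type I and III chains given above and by type VI collagen: Col6a1 stood at 14.5, 12.2 and 10.1 against 126, 114 and 116 TPM (-3.19) and Col6a2 at 3.2, 3.15 and 2.64 against 30.8, 25.9 and 29.3 TPM (-2.89). Col1a2, the partner of Col1a1 in the type I triple helix, was lower by less, at 141, 131 and 111 against 569, 440.5 and 418 TPM (-1.88). The basement membrane chain Col4a1 was higher (0.49), as were Col8a1 (97.8, 95.5 and 80.8 against 49.2, 44.1 and 34.7 TPM, 1.09) and Col8a2 (2.11). Together the 23 chains summed to 1087 to 1293 TPM in the deletion line and 2532 to 3347 TPM in WT.

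Of 21 genes for collagen modification and cross-linking, 10 were lower and 6 higher (median -0.23; 4 higher and 6 lower in the 6-library fit). Serpinh1, the collagen chaperone, stood at 372, 341 and 325 against 690.1, 831 and 853 TPM (-1.19), and Lox, which cross-links collagen, at 21.5, 21.1 and 16.6 against 139.6, 139.5 and 108 TPM (-2.65). Its relative Loxl4 (1.44) and the procollagen protease enhancer Pcolce2 (1.93) were higher. Of 34 tested other matrix genes (of 38), 16 were lower and 13 higher (median -0.11, but 0.01 without WT replicate 1 and -0.23 without WT replicate 3): Vcan, a large proteoglycan, stood at 11.2, 10.8 and 8.99 against 150.0, 129.6 and 86.5 TPM (-3.41), and Postn (-2.89), Tgfbi (-2.65) and Mfap2 (-2.31) were also lower. Fibulin family members went both ways, with Fbln5 (43.3, 40.9 and 35.3 against 11.3, 13.6 and 11.7 TPM, 1.63) and Efemp1 (1.71) higher beside the lower Fbln2. Has2, which makes hyaluronan (1.43), and the laminin chain Lamb1 (1.01) were higher too. Fibronectin, Fn1, did not pass (841, 796 and 657 against 861, 759.6 and 613 TPM, 0.04). Among 20 tested matrix proteases and their inhibitors 9 were lower, led by Timp3 (55.4, 51.7 and 44.4 against 273, 298 and 244 TPM, -2.40), and 7 were higher.

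As a check of the label, 10 of 14 tested fibroblast markers (of 16) were lower in the deletion line and 3 higher (median -1.42). Pdgfra, a receptor that marks mesenchymal cells, stood at 0.342, 0.4 and 0.307 against 3.56, 3.62 and 3.39 TPM (-1.75), and Thy1 at 1.47, 0.959 and 1.28 against 5.91, 3.67 and 4.46 TPM (-1.33). Both were thus low in WT and lower still in the deletion line, and Lum was listed at 0 in all 6 libraries. Other mesenchymal markers were higher: Vim at 2097, 2029 and 2054 against 1480.0, 1712 and 1694 TPM (0.34), Prrx1 at 80.7, 81.6 and 64.3 against 22.9, 23.3 and 15.7 TPM (1.83), and Twist1 (0.79). Of 14 tested genes of smooth muscle and myofibroblasts 7 were higher and 4 lower (6 higher and 2 lower in the 6-library fit), with Des among the lower (-1.59). Acta2, smooth muscle actin, stood at 653, 676 and 603 against 95.1, 135 and 129 TPM (2.43), Tagln at 749.6, 756 and 744 against 67.8, 96.6 and 93.7 TPM (3.13) and Myl9 at 189, 191 and 188 against 22.4, 31.5 and 32.1 TPM (2.70). The late smooth muscle gene Myh11 stayed at or under 0.089 TPM in every library.

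Defining markers of several other cell types were absent or low in both lines. Of 16 epithelial markers 2 could be tested, and the list summed to 7.71 to 11 TPM in the deletion line and 10.5 to 14.1 TPM in WT, with Krt19 the most abundant in WT; Epcam and Cdh1 stayed under 1 TPM. Cdh5 and Cldn5 of endothelium, Adgre1, Tyrobp and C1qa of leukocytes, and Sox10 of glia were at or near 0, none above 0.02 TPM. The endothelial list summed to 39.3 to 42.2 against 23 to 24.4 TPM, mostly Egfl7, and the leukocyte list to 17 to 18.3 against 16.4 to 23 TPM. Of 9 tested neural genes (of 16), 5 were higher and 2 lower, and the list summed to 136 to 166 against 117 to 129 TPM, with Sox2 at 6.17, 5.29 and 5.61 TPM and listed at 0 in all WT libraries, Map2 at 10.4, 9.28 and 8.59 against 0.901, 0.333 and 0.452 TPM (2.75) and Ncam1 at 76.3, 71.6 and 58.6 against 11.9, 15.7 and 11.2 TPM (2.33), while Tubb3 was lower (-2.88). Cartilage and bone genes (7 tested of 16, 1 higher and 2 lower) summed to 180 to 181 TPM in the deletion line and 403 to 512 TPM in WT, mostly the osteopontin gene Spp1, which stood at 145, 149.7 and 149 against 469, 365 and 378 TPM (-1.43). Skeletal muscle genes (6 of 16, 3 higher and 1 lower) summed to 42 to 49.4 against 28.8 to 34.9 TPM, adipocyte genes (5 of 12, 1 and 1) to 12.9 to 14.5 against 9.89 to 10.7 TPM, and pluripotency or germ cell genes (1 of 15, 0 passing) to 3.69 to 4.65 against 1.52 to 4.54 TPM. In the 6-library fit the neural list had 4 genes higher and 1 lower, and the adipocyte list 2 higher and 1 lower. The part of other cell types in the results was not tested. In bulk RNA, a different share of cells and a different level per cell cannot be told apart.

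HOX genes are arranged in 4 clusters whose order along the chromosome follows their expression along the body axis. The lines differed by cluster and between members of a cluster. All 9 genes of cluster C, on chromosome 15, were lower in the deletion line (median -2.62), and their summed level was 6.06 to 6.71 TPM there and 139 to 161 TPM in WT. Hoxc10 and Hoxc11 above were furthest apart, followed by Hoxc13 at 0.8, 0.511 and 0.441 against 15.2, 16.5 and 16.9 TPM (-3.45). Hoxc4 at the other end differed least (2.7, 2.91 and 2.96 against 8.01, 3.73 and 3.84 TPM, -0.61), with WT replicate 1 well above the other WT libraries. It fell by 0.31 without that library, did not pass in the 6-library fit and did not pass in DMSO (-0.10). In 8 of the 9 the difference was at least 2-fold, beside a median of -0.57 for chromosome 15; the part of the chromosome in these differences was not tested.

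In cluster A, 5 of 11 genes were higher and 3 lower (5 lower after quantile normalization). No gene numbered beyond Hoxa10 passed as lower in the main fit. Hoxa6 was lower beside the higher Hoxa7, so the direction did not follow position throughout. Hoxa2 (0.89), Hoxa3 (0.67), Hoxa4 (0.45) and Hoxa7 (7.27, 7.59 and 8.3 against 4.61, 3.88 and 3.52 TPM, 0.81) were among the higher genes (the calls of Hoxa3 and Hoxa4 ended with array weights and that of Hoxa4 after quantile normalization), and Hoxa6 (-0.41; the call ended without PERK-deletion replicate 3 or WT replicate 1, in the 6-library fit, with array weights and with no filter on low values, and it did not pass in DMSO), Hoxa9 (2.54, 2.36 and 2.36 against 25.3, 18.9 and 19.98 TPM, -2.70) and Hoxa10 (1.88, 1.85 and 2.03 against 27, 25.1 and 26.5 TPM, -3.22) were lower. In cluster B 7 of 9 tested genes were lower (5 to 7 without any 1 library) and 1 was higher (0 in the 6-library fit and without PERK-deletion replicate 1 or 2 or WT replicate 3); Hoxb9 stood at 1.54, 1.82 and 1.41 against 5.34, 6.1 and 5.54 TPM (-1.36). No gene of cluster D could be tested, and the cluster summed to at most 0.116 TPM in any library.

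**Figure D4:**
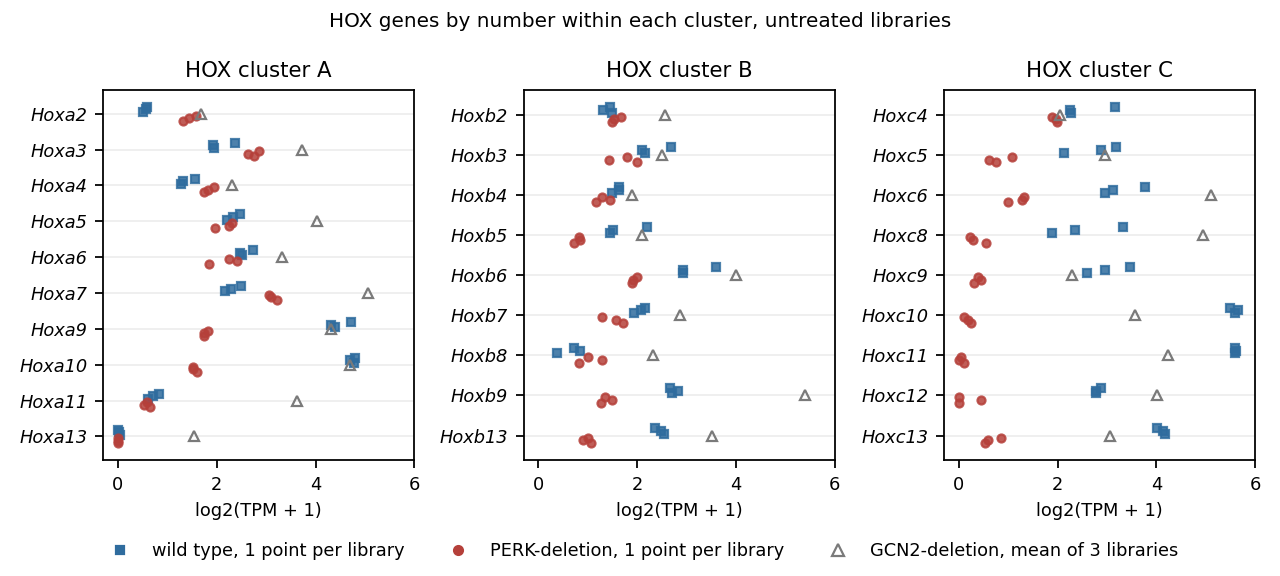
Levels of HOX genes in clusters A, B and C, 1 panel a cluster, with genes in order of their number from top to bottom and log2(TPM + 1) on the horizontal axis. Filled points are single untreated libraries of the PERK-deletion and WT lines and open triangles the mean of the GCN2-deletion line; PERK-deletion points lie left of the WT points for every cluster C gene and for Hoxa9 and Hoxa10, and right of them for Hoxa2 to Hoxa4 and Hoxa7.

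Of 52 other tested transcription factors of body position and mesenchyme (of 64), 19 were higher (36.5%, beside 36.8% of all protein-coding genes) and 17 lower (32.7%, beside 21.6%). Besides the Alx genes and Six2, the deletion line held more of the craniofacial and limb factors Msx2 (12.4, 13.9 and 12.4 against 0.0583, 0.0172 and 0 TPM, 3.76), Msx1 (6.44, 4.79 and 6.92 against 0.751, 0.624 and 0.248 TPM, 2.20) and Dlx2 (1.94). It held less of Tbx3, a limb and heart factor (0.0306, 0.296 and 0.0146 against 11.7, 10.8 and 7.35 TPM, -3.28), Gata6 (0, 0.0201 and 0.022 against 4.96, 3.97 and 3.87 TPM, -2.37) and Twist2 (-1.81). The factor genes thus moved in both directions. Libraries of the lines did not overlap for 37 of the 52, including all those named, which were chosen with their values known. Over all tested genes the shares without overlap were 28.2% with the deletion line above WT and 17% with it below.

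The lines also differed in Y-linked transcripts. Ddx3y stood at 33.9, 32.8 and 28.3 TPM in the deletion line and 0.736, 0.839 and 0.461 TPM in WT (4.28), and Kdm5d (3.35), Uty (3.26) and Eif2s3y were likewise higher. None of the 4 passed between the PERK-deletion and GCN2-deletion lines, with Ddx3y at 35.5 ± 8.06 TPM in the latter (mean ± SD, n = 3 libraries). Xist, which female cells use to silence an X chromosome, was under 0.08 TPM in all 6 libraries. Of 22 tested imprinted genes (of 27), 10 were higher and 5 lower (median 0.30, but 0.11 without PERK-deletion replicate 1), with large differences for Plagl1 (39.1, 34.7 and 33.8 against 5.06, 2.97 and 2.2 TPM, 3.11), the amino acid transporter Slc38a4 (70.4, 68.9 and 58.5 against 6.43, 7.19 and 5.99 TPM, 3.15) and Mest (2.10). Grb10 was lower (-0.80).

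With no stress applied, ATF4 and CHOP genes were not uniformly lower in the deletion line. Of 28, 12 were lower, 6 higher and 10 did not pass (median -0.14, or -0.09 without PERK-deletion replicate 2; 5 higher and 7 lower in the 6-library fit), and 6 of the 12 lower genes lie on chromosomes 7 or 15. Atf4 itself, on chromosome 15, stood at 329, 331 and 293 against 535, 562 and 579 TPM (-0.81, SE 0.0474, adjusted p = 3.19e-14). Ddit3, which encodes CHOP, stood at 50.3, 54.4 and 53 against 65.2, 63.1 and 67.2 TPM (-0.30, adjusted p = 0.000176) and did not pass in DMSO (-0.10). Atf5, on chromosome 7, was lowest in the list (31.9, 29.4 and 26.1 against 87.6, 97.2 and 104 TPM, -1.69), followed by Ndrg1 on chromosome 15 (-1.50). The highest was Vldlr, a lipoprotein receptor (2.99, 2.89 and 2.23 against 0.00847, 0.0635 and 0.00627 TPM, 1.84). The stress targets Trib3 (27.2, 25.6 and 28.5 against 20.7, 18.2 and 16.7 TPM, 0.53) and Gadd45a (21.4, 22.8 and 20.8 against 12.2, 11.6 and 12.2 TPM, 0.80) were higher, and Chac1 (0.02), Sesn2 (0.00) and Ppp1r15a (-0.06) did not pass. Once the cells were starved, Trib3 and Gadd45a stood below WT (-2.59 and -2.84), and with thapsigargin too (-2.08 and -2.61).

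Of 14 tested genes of amino acid synthesis and one-carbon metabolism (of 15), 9 were lower and 1 higher (median -0.32; 0 higher and 4 lower in the 6-library fit), and none lies on chromosomes 7 or 15. Psat1 of serine synthesis stood at 290.4, 297 and 262 against 463, 512 and 476 TPM (-0.77) and Aldh1l2 of mitochondrial folate metabolism at 17.6, 17.5 and 14.4 against 70.7, 65.4 and 46.1 TPM (-1.80). The asparagine synthetase gene Asns was slightly lower (-0.21; the call ended with the 6 libraries fitted alone), and Mthfd2 did not pass (-0.02). Of 20 cytosolic tRNA synthetases 8 were higher and 5 lower, beside 36.8% and 21.6% over all protein-coding genes (4 higher and 3 lower in the 6-library fit), and their median of 0.02 turned to -0.09 after median-of-ratios rescaling and to -0.001 without PERK-deletion replicate 1. Of the 8 higher synthetases 6 lie on chromosomes 9, 12, 13 or 18, and of the 5 lower 2 lie on chromosomes 7 or 15. Amino acid transporters were 7 of 15 lower and 5 higher (3 without WT replicate 3; 2 higher and 6 lower in the 6-library fit), 4 of the 7 on chromosomes 7 or 15, among them Slc1a5 (44, 30.5 and 31.2 against 148, 102 and 92.6 TPM, -1.66) and Slc38a2 (-1.14).

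The ATF4 binding element TGATGCAA was searched in the 250 bases before the start in RefSeq promoters (GRCm38.p6, both strands), since ATF4 genes went both ways. It was found in 8 of 24 matched ATF4 and CHOP genes (33.3%) and in 248 of 27025 promoters (0.918%). Shown are 1 promoter each of a gene that was higher, one that was lower and one close to the threshold, 5′ to 3′ with the element in capitals.
Jdp2 (chr12:85599369-85599404, plus strand): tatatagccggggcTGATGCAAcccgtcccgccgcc
Nupr1 (chr7:126625559-126625594, plus strand): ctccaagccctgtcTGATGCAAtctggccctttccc
Atf3 (chr1:191183422-191183457, plus strand): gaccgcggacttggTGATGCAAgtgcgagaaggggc
Jdp2, a basic leucine zipper factor, stood at 67.5, 61.7 and 58.3 against 37.9, 42.3 and 41.8 TPM (0.61), Nupr1, a small stress protein, at 24.1, 23.4 and 24.2 against 41.5, 38.7 and 42.7 TPM (-0.75), and Atf3, a stress factor, at 6.73, 7.62 and 5.42 against 6.75, 10.03 and 9.4 TPM (-0.35, adjusted p = 0.0461). The libraries overlapped for Atf3, and its call ended without PERK-deletion replicate 1 or 3, among other settings. Of the 8 genes with the element 3 were higher, 3 lower and 2 did not pass; a match is a description of the letters and not evidence of binding.

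Abundant ER chaperones were lower in the deletion line. Of 24 chaperone and folding enzyme genes, 13 were lower and 6 higher (median -0.17; 4 higher without PERK-deletion replicate 1, and 1 higher and 6 lower in the 6-library fit), with 2 of the 13 on chromosomes 7 or 15. Hspa5, the main chaperone of the ER lumen, stood at 552, 511 and 453 against 829.5, 879.8 and 815 TPM (-0.74, SE 0.0628, adjusted p = 9.53e-11). Calr, which folds glycoproteins, stood at 697, 676 and 561 against 924, 1215 and 1159 TPM (-0.77), and Hsp90b1 at 467, 464 and 378 against 777, 719 and 618 TPM (-0.69). Serpinh1 above was the lowest of the list, and Creld2 was lower as well (63.2, 63.1 and 54.8 against 108, 104 and 110.1 TPM, -0.83). The highest against WT was Fkbp14, a prolyl isomerase of collagen (11.4, 12.9 and 9.86 against 4.69, 4.27 and 4.35 TPM, 1.18), and the co-chaperone Dnajb9 was higher at a low level (0.59; the call ended with the 6 libraries fitted alone). Dnajc3, an inhibitor of PERK (37, 37.4 and 31.2 against 39.1, 35.1 and 29.2 TPM, 0.04), and Pdia6 (0.10) did not pass.

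The ER stress element (CCAAT, 9 bases of any kind, then CCACG), to which ATF6 binds with the CCAAT factor NF-Y, was found in 7 of 21 matched chaperone promoters (33.3%) and in 35 of all 27025 (0.13%), on either strand. Of the 7 genes, Hspa5, Hsp90b1, Calr, Creld2 and Canx were lower, Pdia6 and Dnajc3 did not pass and 0 were higher. The promoters of 5 are shown, 3 of genes that were lower and the 2 that did not pass.
Hspa5 (chr2:34772011-34772057, plus strand): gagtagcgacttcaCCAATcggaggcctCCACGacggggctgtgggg
Calr (chr8:84847061-84847107, plus strand): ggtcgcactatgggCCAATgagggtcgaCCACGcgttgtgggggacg
Creld2 (chr15:88819506-88819552, minus strand): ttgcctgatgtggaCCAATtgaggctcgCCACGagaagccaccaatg
Pdia6 (chr12:17266477-17266523, plus strand): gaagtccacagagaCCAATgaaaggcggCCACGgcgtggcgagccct
Dnajc3 (chr14:118937813-118937859, plus strand): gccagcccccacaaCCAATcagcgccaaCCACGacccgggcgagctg
Canx, a lectin chaperone, stood at 315, 328 and 261 against 376, 436 and 341 TPM (-0.35; the call ended in the 6-library fit and with array weights). Pdia6 passed as higher after quantile normalization, among protein-coding genes only and without PERK-deletion replicate 3. Other ER groups had medians closer to 0: ER-associated degradation had 6 of 17 genes higher and 3 lower (median 0.09), translocation and N-glycosylation 6 of 24 and 5 (0.10; 10 higher after quantile normalization), and the IRE1 and ATF6 sensor genes 4 of 11 and 3 (0.05; 2 higher without WT replicate 3). After median-of-ratios rescaling all 3 medians were below 0, and leaving out 1 library moved them over 0.06 to 0.19, 0.06 to 0.12 and 0.00 to 0.14. In the 6-library fit 2, 3 and 1 genes of these lists were higher and 2, 2 and 3 lower. Xbp1, the target of IRE1, was lower (30.5, 28.8 and 24.4 against 38.3, 37.2 and 37 TPM, -0.42) but did not pass in DMSO (-0.17), Ern1, which encodes IRE1, was higher (0.48), and Atf6 was slightly higher (0.30, adjusted p = 0.026). The libraries overlapped for Ern1 and Atf6, and both calls ended without WT replicate 3 and in the 6-library fit. The call of Atf6 also ended without PERK-deletion replicate 1 or 2. Of 11 genes for eIF2, its exchange factor eIF2B and its phosphatases, 5 were higher and 2 lower (5 lower after median-of-ratios rescaling), among the former Eif2s1, which encodes eIF2 alpha (133, 121 and 131 against 99.9, 99.4 and 98.7 TPM, 0.37).

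**Figure D5:**
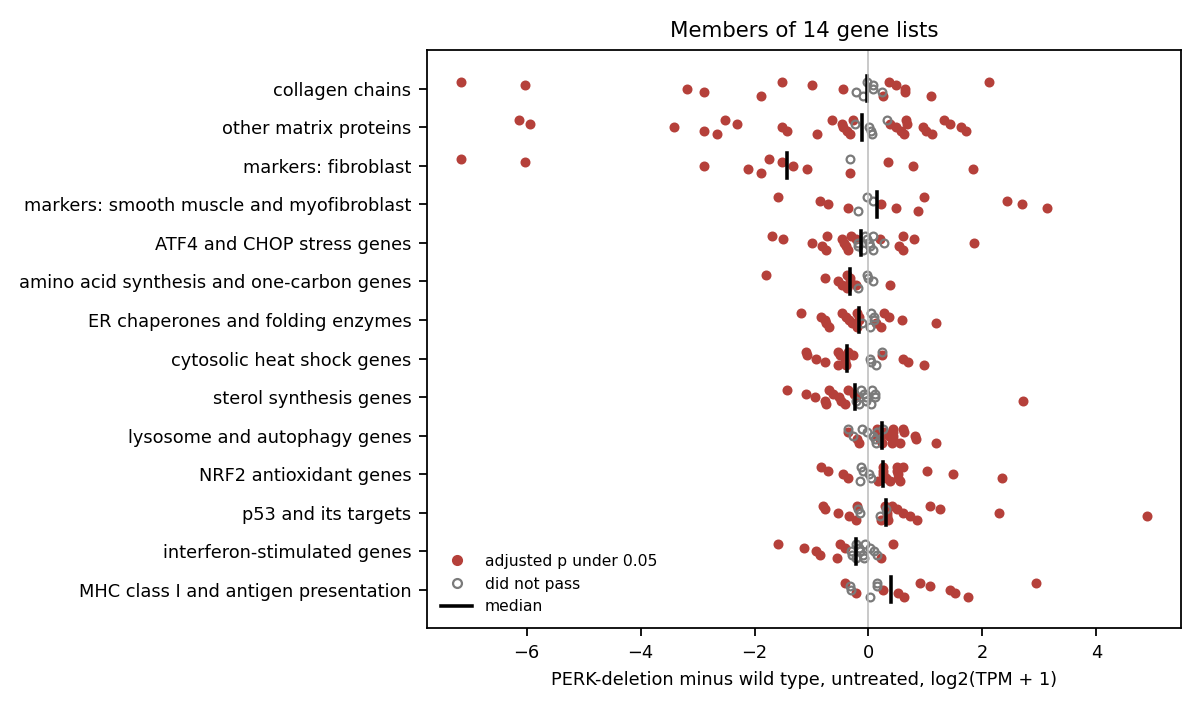
Difference of PERK-deletion minus WT in the untreated libraries for the tested members of 14 gene lists, 1 point a gene, on the log2(TPM + 1) scale. Filled points passed at an adjusted p under 0.05, open points did not, and bars are list medians; the fibroblast markers have the lowest median at -1.42, and the MHC class I genes the highest at 0.39.

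Sterol synthesis genes leaned lower, with 13 of 24 lower and 1 higher (median -0.24; 2 higher without PERK-deletion replicate 3), 3 of the 13 on chromosomes 7 or 15. Sqle, which makes squalene epoxide and lies on chromosome 15, stood at 86.4, 83.7 and 70.4 against 211, 233 and 207 TPM (-1.43), and Cyp51 at 64.6, 75.7 and 64.3 against 146, 161 and 134 TPM (-1.10). Srebf2, the master factor of these genes, was lower too (-0.76). Of 15 fatty acid synthesis genes 7 were lower and 2 higher, and of 24 tested glycolysis and hypoxia genes 10 were lower and 4 higher (1 higher after median-of-ratios rescaling and in the 6-library fit), 5 of the 10 on chromosomes 7 or 15, with the lactate dehydrogenase gene Ldha among them (-0.68).

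Cytosolic heat shock genes were lower in 12 of 20 cases and higher in 4 (median -0.38; 2 higher and 8 lower in the 6-library fit). Hspa8, the constitutive HSP70, stood at 2212, 2120.0 and 1917 against 2972, 4013 and 3671 TPM (-0.76), Hsph1, its exchange factor, at 128, 119 and 92.1 against 247, 272 and 210.4 TPM (-1.10), and the master factor Hsf1, on chromosome 15, was lower (-0.92). The small heat shock gene Hspb8 was higher (73.4, 65.9 and 59.3 against 30.3, 34 and 35.6 TPM, 0.97).

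Lysosome and autophagy genes leaned higher: 18 of 30 were higher and 3 lower (median 0.24; 13 and 6 after median-of-ratios rescaling, and 1 lower without PERK-deletion replicate 3 and in the 6-library fit). Of the 18, 6 lie on chromosomes 9, 12, 13 or 18, where all 6 tested members were higher. Npc1, a cholesterol exporter, stood at 23.4, 23.9 and 19.8 against 13.2, 12 and 10.8 TPM (0.84) and Lamp1 at 710.4, 723 and 590.3 against 456, 538 and 504 TPM (0.43). Of 24 antioxidant genes controlled by NRF2, 15 were higher and 4 lower (10 and 6 after median-of-ratios rescaling), 3 of the 15 on chromosomes 9, 12, 13 or 18. Hmox1, heme oxygenase, stood at 142, 140.4 and 142 against 66.8, 67.9 and 70.8 TPM (1.03), Gsta4 at 24.4, 28.1 and 28.4 against 7.89, 8.74 and 10.3 TPM (1.49) and Mgst1 at 5.47, 6.24 and 5.46 against 0.0666, 0.303 and 0.659 TPM (2.35), whereas the ferritin gene Fth1 was lower (-0.70) and so was Nfe2l2, which encodes NRF2 (-0.45). The mitochondrially encoded genes had 5 of 13 higher and none lower, with 1 higher in the 6-library fit and 3 without PERK-deletion replicate 3, WT replicate 2 or WT replicate 3.

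Among 24 genes of p53 and its targets 14 were higher and 6 lower (median 0.31; 9 higher and 3 lower in the 6-library fit), and 4 of the 6 lie on chromosomes 7 or 15. Of the 14 higher genes, 5 lie on chromosomes 9, 12, 13 or 18. Beside Perp, the largest differences were in Pmaip1, a promoter of apoptosis (6.23, 5.17 and 5.78 against 0.57, 0.364 and 0.22 TPM, 2.29), and the death receptor gene Tnfrsf10b (48.3, 45.2 and 39.2 against 19, 19.4 and 15.7 TPM, 1.25). Cdkn1a, the cell cycle inhibitor p21 (56.2, 53.5 and 49.9 against 36.8, 36.1 and 38.9 TPM, 0.50), and Trp53 (0.34) were higher by less, and Bbc3 was lower (-0.79). Of 16 CDK inhibitors and G1 cyclins 8 were higher and 4 lower (5 higher after median-of-ratios rescaling, 2 lower without PERK-deletion replicate 3, and 5 higher and 1 lower in the 6-library fit); Ccnd2, a cyclin of G1, stood at 74.7, 69.6 and 56.3 against 7.62, 13.1 and 7.51 TPM (2.74). Genes of G2 and mitosis (10 of 23 higher, 4 lower) and of DNA replication (6 of 26 higher, 7 lower) had medians of 0.09 and 0.01. On chromosomes 9, 12, 13 or 18 lie 4 of these 10 and 2 of these 6 higher genes. Of the lower genes, 3 of the 4 and 3 of the 7 lie on chromosomes 7 or 15. After median-of-ratios rescaling both medians were below 0 and 10 genes of each list were lower, and without PERK-deletion replicate 3 the G2 and mitosis list had 2 lower. Leaving out 1 library moved the medians over -0.08 to 0.16 and -0.04 to 0.06. In the 6-library fit 6 genes of G2 and mitosis were higher and 1 lower, and 3 of DNA replication were higher and 1 lower.

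MHC class I and antigen presentation genes were 9 of 16 higher and 2 lower (median 0.39; 4 lower after either rescaling and 1 in the 6-library fit and without PERK-deletion replicate 1 or 3 or WT replicate 1 or 3), led by H2-Q7 (18.8, 17.7 and 15.4 against 2.05, 0.84 and 1.41 TPM, 2.94), H2-K1 (228, 224 and 203 against 62.8, 59.8 and 71.1 TPM, 1.75) and H2-Q4 (1.52). These genes are close copies of each other, so reads may be split between them. Interferon-stimulated genes leaned the other way, with 2 of 21 tested higher and 7 lower (median -0.22; -0.12 without PERK-deletion replicate 3 and -0.07 without WT replicate 1; 1 higher and 14 lower after quantile normalization, 1 higher without PERK-deletion replicate 1 or WT replicate 2, and 0 higher in the 6-library fit), among them Oasl2 (3.78, 2.31 and 2.34 against 13.5, 8.7 and 9.32 TPM, -1.59) and the RNA sensor Ifih1 (-1.13). Of 22 chemokine, cytokine and NF-kappaB feedback genes 10 were higher, such as Tnfaip3, an inhibitor of that pathway (30.8, 31.4 and 27 against 7.04, 6.89 and 7.28 TPM, 1.93), and Lif (1.68), and 6 lower, such as Ccl7 (4.15, 4.25 and 3.77 against 55.8, 42.4 and 49.2 TPM, -3.30) and Ptx3 (-1.41).

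Growth factors and their receptors were 12 of 22 lower and 9 higher (median -0.60, with 5 higher and 11 lower in the 6-library fit). Lower were Fgf7 above, Vegfd of lymphatic growth (3.34, 2.23 and 2.14 against 26, 23 and 20.7 TPM, -2.77) and Gas6, the ligand of Axl (1.42, 1.04 and 0.85 against 10.7, 9.43 and 10.5 TPM, -2.42). Hbegf, a ligand of the EGF receptor, was higher (44.5, 45.3 and 38.2 against 15.8, 16.1 and 16.4 TPM, 1.35), and Fgf10 stood at 4.35, 3.8 and 2.67 TPM and was listed at 0 in all WT libraries. IGF genes were 6 of 15 lower and 5 higher, with the binding protein Igfbp6 at 10.5, 8.95 and 9.84 against 138, 134 and 173 TPM (-3.79), Igfbp4 lower (-3.26) and Igfbp7 higher (292, 276 and 288 against 37.4, 38.2 and 44 TPM, 2.81). In TGF-beta and BMP signalling 10 of 22 were higher and 6 lower: the inhibitor Smad7 stood at 65.9, 57 and 56.6 against 16.5, 16.1 and 15.3 TPM (1.84), the co-receptor Tgfbr3 at 2.72, 2.3 and 2.1 against 34.4, 32.9 and 25.4 TPM (-3.23) and the ligand Bmp4 was lower (-1.54). YAP targets were 11 of 17 higher and 3 lower (6 higher without WT replicate 3 and in the 6-library fit), with Ankrd1 at 267, 269 and 257 against 133, 129 and 124 TPM (1.03). WNT pathway genes were 7 of 24 higher and 10 lower (median -0.20, or -0.13 without PERK-deletion replicate 3; 5 higher and 5 lower in the 6-library fit).

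Set against the untreated GCN2-deletion line, which is another single MEF line, the PERK-deletion line had 4989 genes higher (31%) and 2599 lower (16.2%), 804 (5%) and 647 (4.02%) of them 2-fold, around a median of 0.13. After median-of-ratios rescaling 3611 were higher and 3864 lower, 643 and 770 of them 2-fold, around a median of 0.01, so the excess of higher genes depends on the scaling. Of the 28 genes furthest from WT, 23 passed in the same direction against the GCN2-deletion line, 21 of them 2-fold. Alx4 (4.83) and Six2 (4.44) were higher than in that line, and Col3a1 (-5.91), Col1a1 (-6.39) and Bgn (-6.79) were lower. Crabp1 was lower than in the GCN2-deletion line (-0.64). So were the copies Gm4737 (-0.79) and Hmga1b (-0.78), with means of 280 and 402 TPM in that line. Eif2s3y (0.19) and Gm10800 (0.26) did not pass against the GCN2-deletion line. Acta2, higher than in WT, was lower than in the GCN2-deletion line (-1.22; 1498 ± 69.9 TPM there, mean ± SD, n = 3 libraries). The chaperone list was 18 of 24 lower and 0 higher against that line, MHC class I genes were 16 of 16 higher and interferon-stimulated genes 18 of 21 higher. Genes of amino acid synthesis and one-carbon metabolism, which leaned lower against WT, were 8 of 14 higher and 0 lower than in the GCN2-deletion line. ATF4 and CHOP genes were 14 of 28 higher and 7 lower than in it. The largest differences of all were in Eno1b, an enolase gene copy (0.452 TPM in the PERK-deletion, 0.191 TPM in the WT and 1143 TPM in the GCN2-deletion line), and Gm10184 (382 TPM in the PERK-deletion line, 183 TPM in WT and listed at 0 in the GCN2-deletion line), all means of 3 libraries. The comparisons with WT and with the GCN2-deletion line share the untreated PERK-deletion libraries, so their values stand side by side and are not independent.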

How the data were processed

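Total RNA was extracted with Trizol and sequenced as stranded TruSeq libraries, per the labels' protocols. The authors deposited 1 table of TPM values per gene symbol for 36 libraries, and the submitters' processing notes name kallisto, FastQC and mm10; versions are not given in the sources used here. Every column sums to about 1000000 TPM, so depth is unknown and no counting error can be given.

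The filter kept 16083 genes that reached 1 TPM in 3 or more libraries. A model of group means over all 12 groups was fitted to log2(TPM + 1) with limma 3.58.1 (empirical Bayes with trend, R 4.3.3), with Benjamini-Hochberg adjustment over all tested genes and a threshold of 0.05. The fit was tested on simulated data. Gene positions are from GENCODE M21 (GRCm38). Promoters on chromosome 18 were left out of the motif search. The named genes are the 4 eIF2 alpha kinases, the 14 protein-coding genes furthest apart each way among those at 5 TPM or more without overlap, members of the gene lists after their counts, genes within 5 Mb of Eif2ak3, and the largest differences from the GCN2-deletion line. Beyond these, members with a well-known role were chosen after their values were seen. The comparison, the members and the lists were chosen with earlier results of these data known. An exact permutation test of 3 against 3 libraries cannot go below 0.1 and was not used. A few list members are counted but not reported singly here. Alternatives were other scalings, pseudocounts, filters, fits and leaving out libraries.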

Additional observations from a re-analysis of the deposited data

How the results depend on the processing

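The libraries are technical replicates of 1 line per genotype, and TPM keeps no depth. Fitting the compared groups alone called 3031 genes higher and 1687 lower untreated, and array weights called 1767 lower. With a pseudocount of 0.1 the 2-fold higher calls were 1609 untreated, 1962 in DMSO and 1359 against the GCN2-deletion line, and in all 4 conditions 1149 were higher and 449 lower. In DMSO, quantile normalization gave 4123 higher and 4085 lower (747 and 766 at 2-fold), and median-of-ratios rescaling 4124 lower. These scalings gave 2463 and 2518 lower in all 4 conditions, respectively. The DMSO-against-untreated test called 3 higher and 1 lower with no filter and 3 lower after quantile normalization, and 0 to 2 each way when 1 library was left out, or 0 to 1 higher and 0 to 2 lower at 2-fold. Array weights gave 8545 higher (1261 at 2-fold) and 4004 lower against the GCN2-deletion line. Leaving out 1 library gave 4214 to 5413 higher and 2464 to 3380 lower untreated. Of the 8008 untreated calls, 7141 were kept with their sign after median-of-ratios rescaling, 7131 after quantile normalization, 4664 with the compared groups alone and 5587 with array weights. Same-numbered untreated libraries hardly deviated together (r = 0.04, 0.01 and 0.10 across genes), so the numbers do not pair them; with the replicate block 5046 were higher and 3020 lower, 1067 and 585 at 2-fold. The cause of these shifts was not tested.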
